A study of Rattus norvegicus with 42 samples.

Results

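The small leucine-rich proteoglycans are secreted matrix proteins built from a chain of leucine-rich repeats, and 8 of their genes were followed here in cultured rat kidney mesenchyme: Dcn (decorin), Aspn (asporin), Lum (lumican), Bgn (biglycan), Fmod (fibromodulin), Ogn (osteoglycin), Omd (osteomodulin) and Prelp. They were taken by gene symbol, 8 of the 14218 genes that the array measured with a probe set assigned to a single gene. The tissue was metanephric mesenchyme of rat embryos at embryonic day 13.5, which was freed from the ureteric bud with trypsin and DNase and grown on collagen-coated transwell filters. The study compared 21 groups of 2 arrays each, which its design text calls biological duplicates: freshly dissected mesenchyme, mesenchyme cultured without an inducer for 1 or 2 days (control), and mesenchyme cultured with LIF, with NGAL or with the ANX fraction for 1, 2, 3, 4, 5 or 7 days. LIF is leukaemia inhibitory factor, NGAL is neutrophil gelatinase-associated lipocalin, and the labels do not say what the ANX fraction contains. All cultures, the controls included, received a DMEM/F12 medium with insulin, transferrin, selenium, dexamethasone, prostaglandin, T3, a recombinant FGF and a recombinant TGF, so every difference from fresh tissue also includes that medium and the filter. No control was cultured beyond day 2, so later days can be compared only between inducers or with earlier days.

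As background, the leucine-rich repeats of these proteins bind collagen fibrils and set how wide the fibrils grow and how they are spaced. Decorin and biglycan carry chondroitin or dermatan sulfate chains, lumican, fibromodulin and osteoglycin can carry keratan sulfate, and asporin is a relative of decorin without such a chain. Decorin, biglycan and asporin also bind TGF-beta, and in the developing kidney genes of this family are best known from the stroma and from other fibroblast-like cells.

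Levels are given as log2 of the array intensity, and a level counts as signal above 5.79 on that scale, the 40th percentile of all values (an intensity of 55.2). By that measure Bgn and Prelp were above the threshold on all 42 arrays, Dcn on 39, Lum on 28, Aspn on 15, Ogn on 5, Omd on 1 and Fmod on 0. Group means spread over 4.96 log2 units for Aspn, 4.74 for Lum, 4.53 for Dcn, 2.78 for Ogn and 2.68 for Bgn, against 0.73 for Prelp. Fmod and Omd had no group mean above the threshold and were not tested, so 6 of the 8 genes entered the comparisons. Aspn and Ogn passed only through the groups in which they were high, and counts and medians over the genes that passed are therefore description. Because the tissue was measured in bulk, fewer cells that express a gene and less RNA per cell cannot be told apart.

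**Figure D1:**
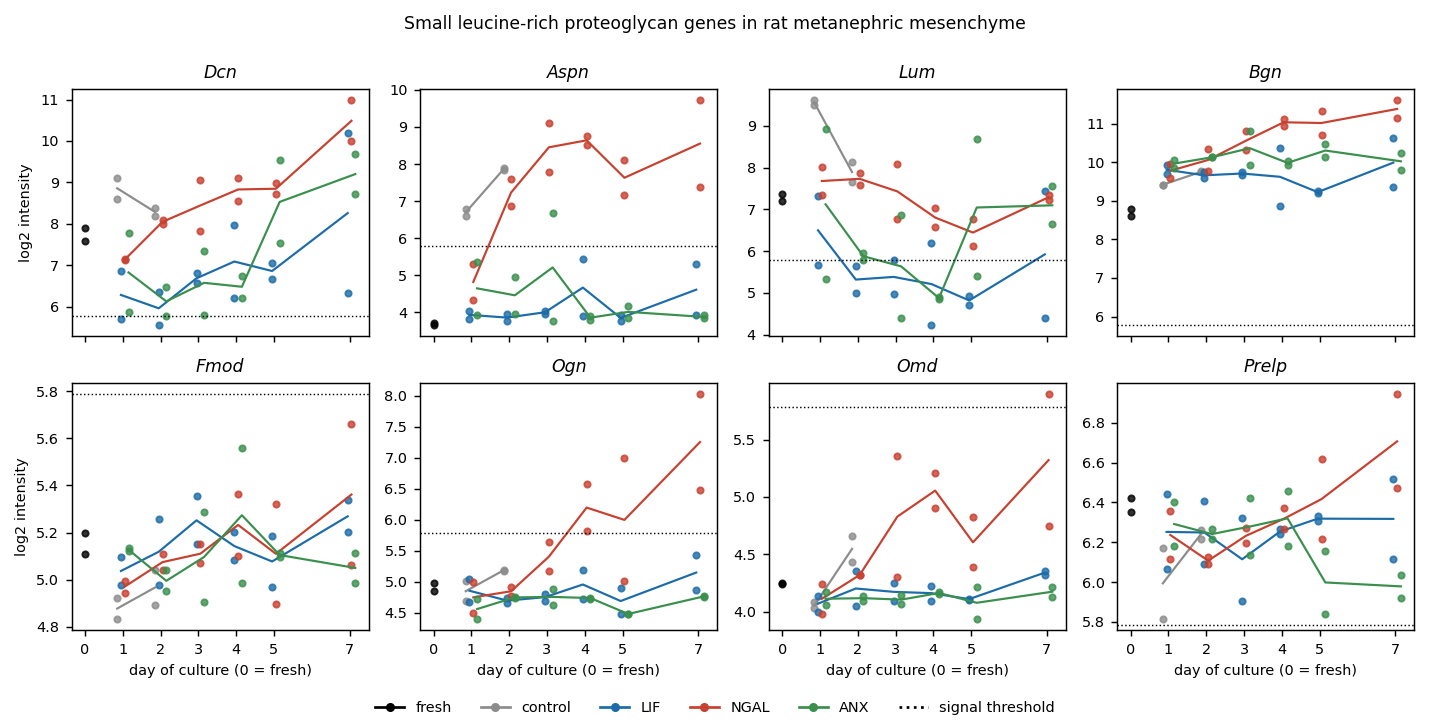
Log2 intensity of each of the 8 genes (vertical axis, its own range in each panel) against the day of culture (horizontal axis, 0 for fresh tissue); points are arrays, lines join the means of 2 arrays, colours mark the treatment and the dotted line is the signal threshold of 5.79. Aspn and Ogn reach 9.72 and 8.02 on an NGAL array of day 7, while no LIF array of either gene is above the threshold.

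Aspn separated the inducers more than any other of the 8 genes. It was absent from the signal range in fresh mesenchyme, appeared in the control cultures within a day, rose with NGAL and stayed under the threshold with LIF and, on all arrays but 1, with ANX. Its levels were 3.67 and 3.70 in fresh tissue, 6.61 and 6.79 in controls of day 1 and 7.89 and 7.83 in controls of day 2. The control arrays lay above both fresh arrays with no overlap. With NGAL the arrays read 5.30 and 4.34 on day 1, 7.59 and 6.88 on day 2, 9.11 and 7.80 on day 3, 8.51 and 8.77 on day 4, 7.16 and 8.10 on day 5, and 9.72 and 7.39 on day 7. With LIF the 12 arrays ran from 3.75 through a median of 3.95 to 5.44. With ANX the 12 arrays ran from 3.75 through a median of 3.93 to 6.67, and the highest was replicate 2 of day 3, whose partner read 3.75. From day 2 on, every NGAL array therefore exceeded every LIF and every ANX array.

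In the fit across all genes (limma), Aspn was 4.18 ± 0.73 log2 units (difference ± SE) higher in controls of day 2 than in fresh tissue, with an adjusted p of 3.40e-04. Because both fresh arrays were under the threshold, that is a rise of at least 4.21-fold. On day 1 the controls were 3.01 ± 0.73 above fresh tissue (adjusted p = 0.0141), a call that was lost when any of the 4 arrays was left out. With ANX, Aspn on days 1 and 2 was 2.72 ± 0.52 below the controls (adjusted p = 7.22e-04), or at least 2.81-fold lower. Within the NGAL series Aspn was 3.73 ± 0.73 higher on day 7 than on day 1 (adjusted p = 0.00143), or at least 6.80-fold, and without NGAL day 7 replicate 1 the adjusted p was 0.0720. Over the 6 days Aspn was 3.40 ± 0.30 lower with LIF than with NGAL (adjusted p = 3.84e-08) and 3.21 ± 0.30 lower with ANX than with NGAL (adjusted p = 1.36e-07). With group means under the threshold set to it, both of those differences were 1.93. Leaving out any array kept both calls.

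Ogn and Omd lie beside Aspn: in the RefSeq annotation of the rat assembly GRCr8 the order of protein-coding genes on chromosome 17 is Ogn, Omd, Aspn. Ogn encodes osteoglycin, also called mimecan, and Omd encodes osteomodulin, a proteoglycan first described in bone. For all 3 neighbours the highest array was NGAL day 7 replicate 1, as it was for every gene of the family but Lum. RefSeq promoter sequences were found for 5 of the 8 genes, and those of these 3 neighbours are shown. Each runs from 250 bases before to 50 bases after the annotated start on the minus strand, 5′ to 3′, and capitals mark the only match to any motif searched, overlapping TATA box letters in Ogn that begin 224 and 222 bases before the start. The sequences are Ogn at chr17:15258946-15259245, Omd at chr17:15274821-15275120 and Aspn at chr17:15310420-15310719.
Ogn: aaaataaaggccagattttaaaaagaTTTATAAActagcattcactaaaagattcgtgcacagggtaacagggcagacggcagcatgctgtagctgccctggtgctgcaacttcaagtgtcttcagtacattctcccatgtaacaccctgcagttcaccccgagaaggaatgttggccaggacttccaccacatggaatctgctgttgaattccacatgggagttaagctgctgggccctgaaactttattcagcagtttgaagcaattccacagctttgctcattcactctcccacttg
Omd: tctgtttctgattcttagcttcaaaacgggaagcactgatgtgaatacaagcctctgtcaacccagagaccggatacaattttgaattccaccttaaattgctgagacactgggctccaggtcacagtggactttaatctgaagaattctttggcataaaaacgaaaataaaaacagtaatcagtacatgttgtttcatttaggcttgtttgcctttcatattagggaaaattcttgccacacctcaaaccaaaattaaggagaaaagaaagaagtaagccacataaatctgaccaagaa
Aspn: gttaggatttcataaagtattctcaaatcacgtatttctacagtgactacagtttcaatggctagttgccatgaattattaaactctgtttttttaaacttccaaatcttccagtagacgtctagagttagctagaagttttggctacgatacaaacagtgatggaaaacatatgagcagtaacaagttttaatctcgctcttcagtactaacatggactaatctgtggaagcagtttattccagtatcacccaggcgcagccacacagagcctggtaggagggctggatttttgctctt
The motifs searched on both strands were the TATA box (TATAAA), AP-1 (TGANTCA), STAT (TTCNNNGAA), a SMAD palindrome (GTCTAGAC) and an E-box (CAGNTG). Of 33469 RefSeq promoters of this length, 14.2% held the TATA letters, 7.33% the AP-1 letters, 8.87% the STAT letters, 0.197% the SMAD palindrome and 50.2% the E-box. In the other promoters found, Lum held an E-box match 216 bases before the start and Fmod a STAT match 240 bases before it. These are matches of letters only and say nothing of binding in these cells.

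Ogn rose late and with NGAL. Its NGAL arrays read 5.00 and 4.50 on day 1, 4.77 and 4.92 on day 2, 5.64 and 5.17 on day 3, 5.82 and 6.57 on day 4, 5.00 and 6.99 on day 5, and 8.02 and 6.49 on day 7. Fresh tissue gave 4.84 and 4.98, and the 4 controls lay between 4.69 and 5.19. The LIF arrays ran from 4.48 through a median of 4.77 to 5.43, and the ANX arrays from 4.40 through 4.73 to 4.88. With the chosen probe set, signal was thus seen on 5 arrays, all of them NGAL arrays of days 4, 5 and 7, and on day 5 on replicate 2 alone. With NGAL, Ogn was 2.51 ± 0.43 log2 units higher on day 7 than on day 1 (adjusted p = 4.10e-04), at least 2.77-fold. This call held without each of the 4 arrays but was lost when only those 4 arrays were fitted (adjusted p = 0.0970), as was that of Aspn (adjusted p = 0.0988). Over 6 days Ogn was 0.89 ± 0.17 lower with LIF than with NGAL (adjusted p = 2.44e-04) and 1.07 ± 0.17 lower with ANX than with NGAL (adjusted p = 6.34e-05). For this probe set, only 0.35 of each difference remained with group means under the threshold set to it. Across the alternatives other than leaving out arrays, the LIF difference ran from -1.88 to -0.02 and the ANX difference from -2.18 to -0.14. The 3 other probe sets of Ogn followed the chosen one over the 42 arrays with r from 0.95 to 0.96. The lowest and highest group means were 4.48 and 7.25 for the chosen probe set. They were 3.34 and 8.72, 3.23 and 6.80, and 3.34 and 6.18 for the others. With every probe set tested on its own, the Ogn probe set with the smallest p was taken for each comparison. That probe set was called lower than in the controls, by 1.41 ± 0.48 with LIF (adjusted p = 0.0405) and by 1.44 ± 0.48 with ANX (adjusted p = 0.0418). The adjusted p-values make no allowance for picking it among the Ogn probe sets. The probe set of highest mean gave 0.588 and 0.412.

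Omd passed the threshold on a single array, NGAL day 7 replicate 1, at 5.89, where its partner read 4.75. The next highest arrays were NGAL day 3 replicate 1 at 5.36 and NGAL day 4 at 4.90 and 5.21. On the LIF arrays Omd ran from 4.00 through 4.13 to 4.36, and on the ANX arrays from 3.94 through 4.14 to 4.22. Omd was not tested, and these values are all below the range in which the array gave signal except for that array. Across the 21 group means Omd followed Ogn with r = 0.94 and Aspn with r = 0.82, and Aspn followed Ogn with r = 0.75. The group means share arrays between genes and include many values below the threshold.

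In the first days Dcn lay below the controls with every inducer, furthest with LIF and ANX, and it was higher at the end of the NGAL series than at its start. Fresh tissue gave 7.58 and 7.89, controls 9.11 and 8.60 on day 1 and 8.20 and 8.38 on day 2. With LIF the arrays read 5.71 and 6.86 on day 1, 5.56 and 6.36 on day 2, 6.80 and 6.57 on day 3, 6.22 and 7.96 on day 4, 7.06 and 6.66 on day 5, and 6.33 and 10.19 on day 7. All 4 LIF arrays of days 1 and 2 lay below all 4 controls and below both fresh arrays, and the day 7 replicates were 3.86 log2 units apart. With ANX the arrays read 5.87 and 7.78 on day 1, 5.78 and 6.47 on day 2, 5.80 and 7.35 on day 3, 6.21 and 6.75 on day 4, 7.53 and 9.53 on day 5, and 8.72 and 9.68 on day 7. With NGAL they read 7.12 and 7.15 on day 1, 8.09 and 8.01 on day 2, 9.05 and 7.84 on day 3, 9.10 and 8.56 on day 4, 8.71 and 8.98 on day 5, and 10.98 and 9.99 on day 7. Every ANX array and every NGAL array of days 1 and 2 also lay below every control. Both NGAL arrays of day 1 lay below both fresh arrays, whereas replicate 2 of ANX day 1 did not. The NGAL arrays of day 7 lay above all earlier NGAL arrays.

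Against the controls of days 1 and 2, Dcn was 2.45 ± 0.60 log2 units lower with LIF (adjusted p = 0.00494) and 2.10 ± 0.60 lower with ANX (adjusted p = 0.0161). The ANX call was lost without control day 1 replicate 1, control day 2 replicate 2 or replicate 1 of ANX day 1 or day 2, 4 of the 8 fits that left out an array, with an adjusted p of up to 0.103. With NGAL the difference was -0.98 ± 0.60 (adjusted p = 0.761). From day 1 to day 7 Dcn rose by 3.35 ± 0.85 with NGAL (adjusted p = 0.00938), or 10.2-fold, and the adjusted p was 0.126 without NGAL day 7 replicate 1 and 0.0685 without NGAL day 1 replicate 2. The same difference was 2.37 ± 0.85 with ANX (adjusted p = 0.0638, and 0.0492 without ANX day 1 replicate 2) and 1.98 ± 0.85 with LIF (adjusted p = 0.138). Without LIF day 7 replicate 1 the LIF value was 3.90 with an adjusted p of 0.00407, so it rests on which of the day 7 replicates is used. Over 6 days Dcn was 1.78 ± 0.35 lower with LIF than with NGAL (adjusted p = 2.55e-04) and 1.34 ± 0.35 lower with ANX than with NGAL (adjusted p = 0.00417). Over days 5 and 7 alone the ANX difference was -0.80 ± 0.60 and was not called (adjusted p = 0.382).

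Lum was highest in the controls of day 1 and did not follow the rise of Dcn in the NGAL series. Its levels were 7.19 and 7.37 in fresh tissue, 9.61 and 9.51 in controls of day 1 and 7.65 and 8.14 in controls of day 2. With LIF the 12 arrays ran from 4.24 through a median of 5.32 to 7.44, and 3 of them were above the threshold. With ANX they ran from 4.41 through 5.88 to 8.92, and 7 were above it. The replicates of ANX were far apart on day 1 at 5.33 and 8.92, on day 3 at 4.41 and 6.86 and on day 5 at 5.40 and 8.70. With NGAL all 12 arrays were above the threshold, at 8.01 and 7.35 on day 1, 7.58 and 7.88 on day 2, 8.09 and 6.77 on day 3, 6.57 and 7.04 on day 4, 6.12 and 6.77 on day 5, and 7.22 and 7.36 on day 7. The 4 LIF arrays of days 1 and 2, between 5.00 and 7.33, lay below all 4 controls, whereas the ANX arrays of those days overlapped them.

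Lum was 2.82 ± 0.72 log2 units below the controls with LIF (adjusted p = 0.00665) and 2.23 ± 0.72 below them with ANX (adjusted p = 0.0310). The ANX call was lost in 7 of the 8 fits that left out an array, all but the fit without ANX day 1 replicate 2, with an adjusted p of up to 0.232, and also with the 3′ to 5′ ratio of the dap spots as a covariate (adjusted p = 0.0621). The difference between controls of day 1 and fresh tissue was 2.28 ± 1.02 and missed the threshold (adjusted p = 0.181), although the arrays did not overlap. Day 7 against day 1 gave -0.39 ± 1.02 with NGAL (adjusted p = 0.832). Over 6 days Lum was 1.70 ± 0.42 lower with LIF than with NGAL (adjusted p = 0.00207), a call that was lost over days 1 and 2 alone (adjusted p = 0.151) and over days 5 and 7 alone (-1.50 ± 0.72, adjusted p = 0.160). It was 0.95 ± 0.42 lower with ANX than with NGAL (adjusted p = 0.0744). That last value passed the threshold without replicate 2 of ANX on day 1 (0.0141), day 3 (0.0300) or day 5 (0.0190), and with the replicate number as a block (0.0411).

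Dcn and Lum are neighbours on chromosome 7 in the same annotation. Across the 21 group means their levels were related with r = 0.59, and the differences between the replicates of a group were related more closely, with r = 0.86 over 21 groups. In each of the groups where Dcn differed by more than 1.5 log2 units between replicates (LIF day 4 and day 7, ANX day 1, day 3 and day 5), replicate 2 was higher for both genes. With ANX replicate 2 was higher than replicate 1 on all 6 days for Dcn and for Lum, and with LIF replicate 1 was higher on all 6 days for Prelp and Fmod. The replicate differences of Aspn and Ogn were related with r = 0.47. Each of these values compares genes on the same arrays, so what an array has in common enters both. Replicates were more than 1 log2 unit apart in 7 of 21 groups for Dcn, 7 for Lum, 6 for Aspn, 2 for Bgn and 0 for Prelp.

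**Figure D2:**
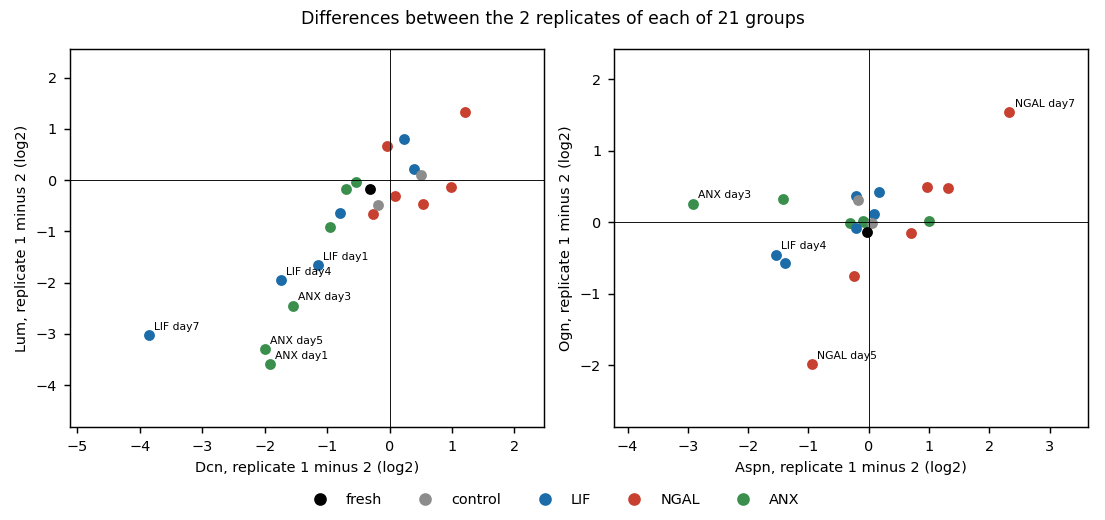
Difference between replicate 1 and replicate 2 (log2) in each of the 21 groups, for Dcn (horizontal) against Lum (vertical) on the left and for Aspn (horizontal) against Ogn (vertical) on the right; each point is a group, coloured by treatment, and groups beyond 1.5 in either gene are named. On the left the LIF day 7 group stands at -3.86 for Dcn and -3.02 for Lum.

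Bgn gave strong signal everywhere and differed less between treatments, but with a smaller spread between replicates. Fresh tissue gave 8.79 and 8.61, controls 9.41 and 9.42 on day 1 and 9.73 and 9.76 on day 2. With NGAL the arrays read 9.60 and 9.96 on day 1, 9.78 and 10.33 on day 2, 10.31 and 10.81 on day 3, 11.12 and 10.95 on day 4, 10.71 and 11.33 on day 5, and 11.60 and 11.16 on day 7. The LIF arrays ran from 8.87 through a median of 9.68 to 10.62 and the ANX arrays from 9.81 through 10.10 to 10.81. Fresh tissue was below every cultured array, and the NGAL arrays of days 4 and 7 were above every LIF and ANX array. Bgn was 1.60 ± 0.37 log2 units higher on day 7 than on day 1 with NGAL (adjusted p = 0.00503), or 3.03-fold, and without NGAL day 7 replicate 1 the adjusted p was 0.0849. Over 6 days it was 0.97 ± 0.15 lower with LIF than with NGAL (adjusted p = 2.27e-05) and 0.51 ± 0.15 lower with ANX than with NGAL (adjusted p = 0.0100). Against the controls of days 1 and 2 Bgn was not called with any inducer, at 0.15 ± 0.26 with LIF (adjusted p = 0.706), 0.34 ± 0.26 with NGAL (adjusted p = 0.816) and 0.46 ± 0.26 with ANX (adjusted p = 0.212). Its rise of 1.05 ± 0.37 from fresh tissue to controls of day 2 was called at an adjusted p of 0.0423, and leaving out any of the 4 arrays ended that call.

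Prelp, whose protein links basement membranes to the collagen beneath them, stayed between 5.82 and 6.94, close above the threshold. Its highest arrays were those of NGAL day 7 at 6.94, NGAL day 5 at 6.62, LIF day 7 at 6.52 and NGAL day 7 again at 6.47. None of its comparisons was called: day 7 against day 1 gave 0.47 ± 0.19 with NGAL (adjusted p = 0.0926), and ANX against NGAL over 6 days gave -0.15 ± 0.08 (adjusted p = 0.125). Both passed the threshold without NGAL day 7 replicate 2, at 0.0268 and 0.0496, and on days 5 and 7 alone Prelp was lower with ANX than with NGAL (adjusted p = 0.00542). Fmod, which binds collagen and affects its cross-linking, ranged from 4.83 to 5.66 and gave no signal in this tissue on any array.

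Within a gene, the order of the 21 group means is coarse. Of the 20 pairs of groups that are neighbours in that order, the replicates did not overlap in 3 for Dcn, 2 for Aspn, 1 for Lum, 4 for Bgn and 1 for Ogn. The remaining neighbours cannot be put in order beyond the spread of their replicates. NGAL day 7 was the highest group for Dcn, Bgn, Ogn and Prelp, NGAL day 4 for Aspn and control day 1 for Lum. The lowest groups were fresh tissue for Aspn and Bgn, LIF day 2 for Dcn, LIF day 5 for Lum, ANX day 5 for Ogn and ANX day 7 for Prelp. The widest step for Aspn was 1.49 log2 units, between controls of day 1 and ANX day 3, and for Lum 1.66, between controls of day 1 and of day 2.

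By comparison, the called genes of the family were as follows. From fresh tissue to controls, 1 of the 6 genes tested (Aspn) was higher on day 1, where 3.80% of all 11388 genes tested were called higher. On day 2 there were 2 (Aspn and Bgn), where 9.47% of all genes tested were called higher. Against the controls of days 1 and 2, 3 genes (Dcn, Aspn and Lum) were lower with LIF, where 12.6% of all genes were called lower, and Dcn, Aspn and Lum were lower with ANX, where 9.12% were. With NGAL none of the 6 tested was called, and limma called 0.00% of all genes. In that comparison 799 genes had an unadjusted p under 0.05, Aspn among them at 0.0230. These 3 comparisons share their 4 control arrays. From day 1 to day 7, 4 genes (Dcn, Aspn, Bgn and Ogn) rose with NGAL, where 6.92% of all genes were called higher. None was called with LIF, where 10.9% of genes were called in either direction, or with ANX, where 13.8% were. Whether the course over days differed between inducers was tested directly by an interaction of inducer and day. It was called for none of the family and for 0.0351% of all genes, with unadjusted p-values of 0.00905 for Aspn, 0.0166 for Ogn and 0.0324 for Bgn, so the day 7 rise is not shown to be particular to NGAL.

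Between inducers over 6 days, 5 genes (Dcn, Aspn, Lum, Bgn and Ogn) were lower with LIF than with NGAL, where 20.3% of all genes were called lower, and 4 (all of these but Lum) were lower with ANX than with NGAL, where 15.3% were. Between LIF and ANX none was called, against 5.01% of all genes in either direction; the nearest was Bgn, at -0.46 ± 0.15 (adjusted p = 0.0767). Bgn was called without LIF day 4 replicate 2 (0.00844), LIF day 7 replicate 2 (0.0133) or ANX day 3 replicate 1 (0.0263). For Dcn the difference between LIF and ANX was -0.43 ± 0.35 (adjusted p = 0.521) and for Lum -0.75 ± 0.42 (adjusted p = 0.333). The median difference over the 6 genes tested was -1.34 for LIF against NGAL, beside 0.03 over all genes, and -1.01 for ANX against NGAL, beside 0.04. Aspn and Ogn passed the filter only through NGAL groups or, for Aspn, also control groups, which draws these medians down, so they are description only. These 3 comparisons share arrays in pairs.

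**Figure D3:**
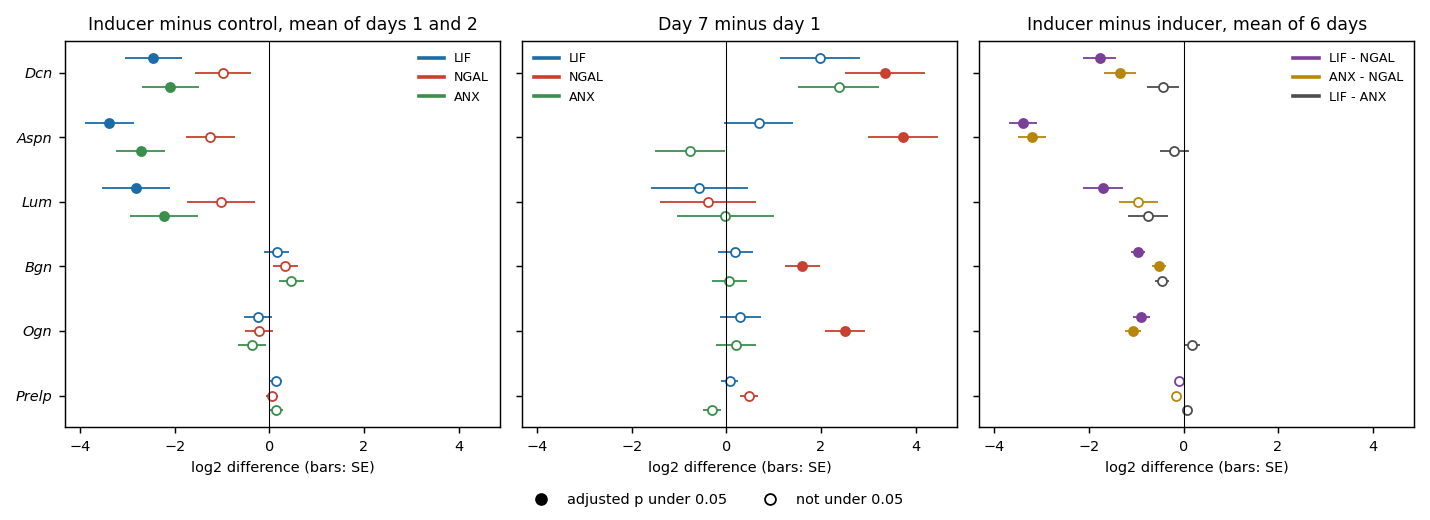
Log2 differences with their standard errors (horizontal) for the 6 genes tested (vertical), against the controls of days 1 and 2 on the left, day 7 against day 1 in the middle and between inducers over 6 days on the right; filled points have an adjusted p under 0.05. Dcn, Aspn and Lum lie to the left of 0 with LIF and ANX in the left panel, and Bgn does not.

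The collagens that these proteins bind were lower with LIF and ANX than with NGAL. Of 12 fibrillar and fibril-associated collagen genes, 11 were lower with LIF than with NGAL over 6 days and 12 were lower with ANX than with NGAL, with median differences of -1.80 and -1.47. Beside this list and those below, 20.3% of all genes tested were lower and 21.5% higher with LIF than with NGAL. With ANX 15.3% were lower and 22.2% higher than with NGAL. Col1a2, a chain of type I collagen, was 1.94 ± 0.19 lower with LIF (adjusted p = 1.68e-07) and 1.59 ± 0.19 lower with ANX (adjusted p = 2.63e-06), and Col6a3, a chain of the beaded type VI collagen, was 2.60 ± 0.32 lower with LIF (adjusted p = 1.95e-06). Against the controls 7 of the 12 were lower with LIF and 2 with ANX, and from day 1 to day 7 with NGAL 5 rose, Col6a3 by 3.43 ± 0.79 (adjusted p = 0.00521). Of all genes tested, 12.6% were lower with LIF and 9.12% with ANX than in controls, and 6.92% rose from day 1 to day 7 with NGAL. Genes that process and cross-link collagen gave 11 of 11 lower with LIF and 10 of 11 lower with ANX than with NGAL, with medians of -0.77 and -0.73. Among them Loxl1, a lysyl oxidase, was 1.42 ± 0.15 lower with LIF (adjusted p = 3.35e-07). From day 1 to day 7 with NGAL 7 of the 11 rose, led by Lox, the enzyme that starts collagen cross-links, at 5.02 ± 0.70 (adjusted p = 5.36e-05), and with ANX Lox rose by 2.71 ± 0.70 (adjusted p = 0.0109).

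Enzymes that build the sugar chains were lower with LIF and ANX than with NGAL for chondroitin sulfate and higher for keratan sulfate, in part of each list. For chondroitin and dermatan sulfate, the chains of decorin and biglycan, 14 genes were tested and 8 were lower with LIF than with NGAL, while 5 were lower and 1 higher with ANX than with NGAL. Chsy3, a chondroitin synthase, was 1.53 ± 0.26 lower with LIF (adjusted p = 5.58e-05), and Dsel, a dermatan sulfate epimerase, was 1.42 ± 0.26 lower with ANX (adjusted p = 1.97e-04). Of 5 keratan sulfate genes tested, 3 were higher with LIF and 3 higher with ANX than with NGAL, and none was lower. Chst2, a sulfotransferase, was 1.07 ± 0.12 higher with ANX than with NGAL (adjusted p = 9.39e-07) and 1.71 ± 0.20 higher with ANX than in controls (adjusted p = 6.10e-06). B4galt1, a galactosyltransferase with uses beyond keratan sulfate, was 1.18 ± 0.28 higher with ANX than in controls (adjusted p = 0.00443) and 1.13 ± 0.28 higher with LIF than in controls (adjusted p = 0.00496).

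Other proteoglycans did not share one direction. Counts of this list and of those that follow are to be read against all genes tested, of which 20.3% were lower and 21.5% higher with LIF than with NGAL, and 15.3% lower and 22.2% higher with ANX than with NGAL. Of 15 tested, 6 were lower and 1 higher with LIF than with NGAL, and 4 were lower and 4 higher with ANX than with NGAL. Sdc2, the cell-surface proteoglycan syndecan-2, was 1.56 ± 0.21 lower with LIF (adjusted p = 4.84e-06), and Vcan, the large matrix proteoglycan versican, was 0.70 ± 0.16 higher with ANX than with NGAL (adjusted p = 0.00160). Among 9 further members of the small leucine-rich family, 3 passed the filter, and Tsku (tsukushi) was lower than with NGAL by 0.49 ± 0.07 with LIF (adjusted p = 1.72e-05) and by 0.30 ± 0.07 with ANX (adjusted p = 0.00328).

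Of 12 matrix proteases and inhibitors, 5 were lower and 1 higher with LIF than with NGAL, and 4 were lower and 2 higher with ANX than with NGAL. Adamts9, a protease of large proteoglycans, was 1.90 ± 0.27 lower with LIF (adjusted p = 7.62e-06), while Mmp3, a stromelysin that can cleave decorin, was 1.89 ± 0.19 higher with ANX than with NGAL (adjusted p = 3.00e-07). Of 14 TGF-beta ligands, receptors and targets, 7 were lower and 1 higher with LIF, and 7 were lower and 2 higher with ANX, than with NGAL. The ligand Tgfb2 was 0.93 ± 0.16 lower with LIF (adjusted p = 5.64e-05), and Ltbp3, which holds latent TGF-beta in the matrix, was 0.61 ± 0.09 lower with LIF (adjusted p = 2.45e-05). Of 6 receptors reported to bind these proteins, 3 were lower with LIF than with NGAL, among them the integrin chain Itgb1 by 0.70 ± 0.08 (adjusted p = 9.42e-07). With ANX, 2 were lower and the decorin receptor Met was 0.83 ± 0.31 higher (adjusted p = 0.0359). As shares of these small lists, the genes called higher with ANX were no more frequent than among all genes for the proteases, the TGF-beta genes and the receptors.

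**Figure D4:**
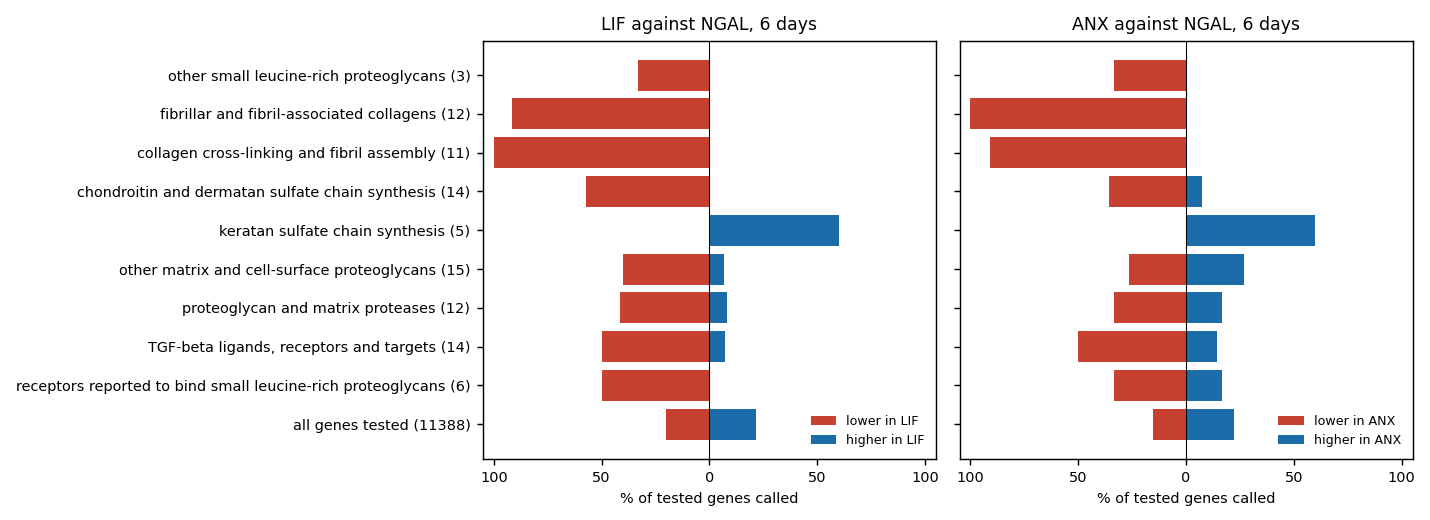
Share of the tested genes of each matrix list (number tested in brackets) called lower (red, to the left) or higher (blue, to the right) with LIF than with NGAL on the left and with ANX than with NGAL on the right, as percent, with all 11388 genes in the bottom row, of which 21.5% are higher with LIF and 22.2% higher with ANX. The collagen and cross-linking lists lie almost wholly to the left and the keratan sulfate list to the right.

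Genes whose group means followed each member most closely were picked by Pearson's r over the 21 groups. For Aspn they were Col1a1 (r = 0.97), the type I collagen chain, Dsel (0.96) and Cavin2 (0.95), a caveola protein. For Ogn they were Ccl11, Srpx and Papss2, each with r = 0.97, of which Papss2 makes the sulfate donor used for sugar chains and Ccl11 encodes the chemokine eotaxin. Dcn was followed by Fstl1 (0.92), a secreted follistatin-like protein, by Atraid (0.91) and by Fig4 (0.90). Lum was followed by Nudt7 (0.91), Ralb (0.90) and Arhgap18 (0.90), and Bgn by Emc7 (0.94), Slc39a7 (0.91) and Sdf4 (0.91). Prelp was followed less closely, by Plac9 (0.86), Nags (0.80) and the unnamed locus LOC100910319 (0.79). The group mean of Col1a1 was 8.76 in fresh tissue, 11.02 in controls of day 2, and 8.66 with LIF, 11.56 with NGAL and 9.06 with ANX on day 7. That of Papss2 was 6.09 in fresh tissue and 9.21 with NGAL on day 7, beside 6.38 with LIF and 5.70 with ANX. All these values share the same arrays.

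Markers of other cell types also differed in these comparisons, in both directions. From day 1 to day 7 with NGAL, 6.92% of all genes tested were called higher and 8.60% lower. Of 6 skeletal muscle genes tested, 5 were lower with LIF and 6 lower with ANX than with NGAL, and their summed intensity ran from 430.3 to 462 in fresh tissue, 872 to 2705 in controls, 908 to 5999 with LIF, 915 to 18084 with NGAL and 772 to 2904 with ANX. Myf6 was below the threshold on every array.  Of 7 smooth muscle and pericyte genes, 6 were lower with LIF and 6 with ANX than with NGAL, with sums of 1966 to 1979 in fresh tissue, 3217 to 5400 in controls, 1988 to 3722 with LIF, 3345 to 11314 with NGAL and 1996 to 3998 with ANX. Of 8 renal stroma genes, 6 were lower and 1 higher with LIF, and 7 were lower and 1 higher with ANX, than with NGAL, and their sums were 18155 to 19228 in fresh tissue, 19867 to 21549 in controls, 8065 to 14324 with LIF, 9947 to 20578 with NGAL and 8145 to 17486 with ANX. Bone markers rose too: both bone genes that passed the filter rose with NGAL from day 1 to day 7, Spp1 (osteopontin, also made by epithelia) by 3.01 ± 0.61 (adjusted p = 0.00187) and Dmp1 by 0.99 ± 0.21 (adjusted p = 0.00257). With ANX the bone sum also rose, from 1362 and 972 on day 1 to 5699 and 6588 on day 7. With LIF it was 2196 and 2437 on day 1 and 3636 and 8747 on day 7. The bone sum ran from 227 to 235 in fresh tissue, 391 to 763 in controls, 1101 to 8747 with LIF, 424 to 7336 with NGAL and 593 to 8734 with ANX, while Ibsp, Bglap, Alpl and Phex were below the threshold on all arrays. Of 6 cartilage genes tested, 2 fell with NGAL from day 1 to day 7, and the cartilage sum ran from 4161 to 4464 in fresh tissue, 2101 to 3668 in controls, 2323 to 5463 with LIF, 550.0 to 3347 with NGAL and 1894 to 4687 with ANX, with Comp and Cnmd below the threshold on all arrays. Of 3 tendon genes tested, 1 rose with NGAL from day 1 to day 7, and the tendon sum ran from 2864 to 3462 in fresh tissue, 3919 to 4274 in controls, 2241 to 4671 with LIF, 2766 to 5321 with NGAL and 2259.8 to 3676 with ANX, with Tnmd below the threshold on all arrays. The tendon list was Scx, Tnmd, Mkx, Thbs4 and Egr1, of which 4 had a probe set assigned to a single gene. A summed intensity leans to its brightest genes, so the tendon sum does not by itself show tendon cells. Some lists went the other way. The median nephron epithelium sum was 1566 with LIF and 1931 with ANX, against 913 with NGAL. The neuron and Schwann cell median was 1077 and 660 against 474, and the cartilage median 3751.5 and 4019 against 2227. Of 7 cap mesenchyme genes tested, 3 were higher and 1 lower with LIF and 5 were higher with ANX than with NGAL, and 3 fell with NGAL from day 1 to day 7. Their sums were 7343 to 8131 in fresh tissue, 4471 to 7596 in controls, 5772 to 9294 with LIF, 1746 to 8261 with NGAL and 5156 to 10085 with ANX, and Six2, Cited1 and Osr1 were not analysed here. Of 7 endothelial genes, 3 were lower with LIF and 4 with ANX than with NGAL, and their sums were 2347 to 2414 in fresh tissue, 1246 to 2630 in controls, 424 to 1171 with LIF, 667 to 1592 with NGAL and 465 to 1306 with ANX. Of 5 macrophage genes, 2 were lower with LIF and 3 with ANX than with NGAL; their sums were 461 to 488 in fresh tissue, 421 to 618 in controls, 396 to 525 with LIF, 443 to 1028 with NGAL and 424 to 489 with ANX, and Ptprc was below the threshold on all arrays. The part of these cell types in the differences of the proteoglycan genes was not tested.

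NGAL day 7 replicate 1 was the highest of all arrays for every gene of the family but Lum, though Fmod stayed under the threshold there. This array stood apart from its partner in several of these lists. It had the lowest cap mesenchyme sum of all 42 arrays, 1746 against 6059 in replicate 2, and the lowest cartilage sum, 550.0 against 1856. Its skeletal muscle sum was 1630.5 against 5391, its smooth muscle and pericyte sum 5846 against 10131, its bone sum 2362 against 7336 and its nephron epithelium sum 1514 against 4088. Its renal stroma sum was higher, 17316.5 against 9947, as were its tendon sum, 5185 against 2766, and its endothelial sum, 1592 against 723. The calls of Dcn, Aspn and Bgn between day 1 and day 7 with NGAL were lost without this array, and that of Ogn was not.

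The ratio of 3′ to 5′ signal of the dap control spots, on the log2 scale, ranged from 0.77 to 2.35 and the 5S rRNA signal from 6.30 to 10.3, and the 5S signal of controls of day 2 averaged 10.2. The 3′ to 5′ ratio of beta-actin, on the same scale, ran from 0.73 on ANX day 1 replicate 1 to 1.59 on control day 1 replicate 1. It was 1.57 and 1.55 in the controls of day 2 and entered no fit.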

How the data were processed

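RNA from 42 samples was measured on Affymetrix rat expression arrays, 21 groups of 2. Per the labels and the submitters' processing notes, the authors deposited intensity values made by robust multichip analysis (RMA), with the version not given in the sources used here. Array medians ran from 83.3 to 88.4. With groups of 2, the number of arrays limits the precision. Here the deposited intensities were turned into log2 values with no further normalization. Of 31099 probe sets, 20832 had 1 gene in the platform table, 436 had several and 9831 had none. Each of 14218 genes was represented by its probe set of highest mean, and 11388 genes with at least 1 group mean above the signal threshold (the 40th percentile over the whole table) were tested. Differences were fitted with limma 3.58.1 in R 4.3.3 (lmFit and eBayes with a variance trend) as contrasts of 21 group means, and were called at a Benjamini-Hochberg adjusted p under 0.05 over all genes tested; the fit was tested on simulated data. Where a group lay below the threshold, its mean was set to the threshold to give the least fold change. The 2 probe sets of Aspn were correlated with r = 0.99 and the other genes but Ogn had 1 each.

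Members and lists were chosen with earlier results of these data known. The text names all 8 members, up to 3 called genes with the smallest adjusted p from each list, and the 3 genes most like each member. Markers of cartilage, bone, tendon, muscle, stroma and other cell types were read in the same fit. The design text calls the arrays biological duplicates without naming litters, so p-values measure the spread between these samples. Same-numbered replicates did not deviate together in every pair of groups: over 210 pairs the correlation of their deviations across genes ran from -0.65 to 0.74 with a median of 0.07, and was above 0.1 in 88, so numbers were not used as pairs, though some groups did share a direction. The 210 pairs join groups within and across treatments, so pairing within the series of a single inducer was not tested. If such series exist, the arrays of an inducer are not independent, and the main fit makes no allowance for that. No 2 arrays were identical. Alternatives covered the filter, the threshold as a floor, probe set choice, normalization, array weights and the variance trend. Others covered the 3′ to 5′ ratio of the dap control spots, a replicate block, the arrays in the fit, single days and each array left out. The dap spots are controls and not rat genes. No measure of RNA quality taken from rat transcripts entered a fit. Promoter sequences came from RefSeq (GRCr8).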

Additional observations from a re-analysis of the deposited data

How the results depend on the processing

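The number of family genes called stayed within 1.5 times its value in 264 of 299 repeats over all comparisons and settings. Single genes kept their side of the threshold in 1707 of 1782 repeats, lost a call in 47 and gained one in 27. Only repeats of genes called in the main fit could lose a call. The share over all 1782 therefore understates how often calls were lost. A reversal was counted only where the gene was called in the main fit or in the repeat. That occurred in 1: Bgn in ANX against NGAL was 0.13 over days 1 and 2 (adjusted p = 0.867). Changes of sign in genes not called were not counted. For example, Lum on day 7 against day 1 with ANX ran from -1.82 to 1.77 when single arrays were left out. The cause of these shifts was not tested, except that fewer arrays enter some settings.

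With only the arrays of the groups compared in the fit, the count of called genes was 4 in place of 1 for control day 1 against fresh tissue, 4 in place of 2 for control day 2, 1 in place of 0 for NGAL against control, 5 in place of 3 for ANX against control and 2 in place of 4 for NGAL day 7 against day 1 (Aspn and Ogn were lost). Values below the threshold set to it gave 0 for control day 1, and all probe sets or the dap ratio as a covariate each gave 1 for control day 2. Against controls, LIF gave 1 on day 1 alone and 1 on day 2 alone, and ANX gave 0 and 1. Over days 1 and 2 alone, LIF against NGAL gave 1 in place of 5 and ANX against NGAL 0 in place of 4; over days 5 and 7 alone Lum lost its call in the former and Dcn in the latter. For ANX day 7 against day 1, array weights and a linear slope each gave 1 in place of 0. With the replicate number as a block that comparison gave 1 in place of 0 (Dcn, adjusted p = 0.0391) and ANX against NGAL gave 5 in place of 4 (Lum, adjusted p = 0.0411); no other count of family genes changed under the block.

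Leaving out each array gave 0 to 0 called genes for control day 1, 1 to 1 for control day 2, 1 to 3 for ANX against control, 0 to 1 for LIF day 7, 1 to 5 for NGAL day 7 (1 without NGAL day 7 replicate 1), 0 to 1 for ANX day 7, 0 to 1 for LIF against ANX and 4 to 5 for ANX against NGAL.

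Over all genes, the other alternatives gave 606 to 1891 calls against 690 for control day 1, 1673 to 6165 against 2527 for control day 2, 927 to 3786 against 2733 for LIF and 599 to 3645 against 2309 for ANX against control, and 0 to 23 against 0 for NGAL against control. They gave 30 to 1556 against 1241 for LIF, 144 to 2229 against 1767 for NGAL and 586 to 2062 against 1575 for ANX on day 7, 589 to 7002 against 4751 for LIF and 241 to 6411 against 4273 for ANX against NGAL, 15 to 711 against 570 for LIF against ANX, and 0 to 17 against 4 for the interaction. Levels of Aspn, Ogn, Omd and Fmod near or below the threshold limit what their differences can show.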
